A study of Drosophila melanogaster with 24 samples.

Results

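The contrast described here asks whether males and females answer the same injury differently, in single brains of *Drosophila melanogaster* that lack Tau. It is the sex by injury interaction at 1 h after traumatic brain injury (TBI): the log2 fold change (log2 FC) of males at 1 h post-TBI against male controls, minus the log2 FC of females at 1 h post-TBI against female controls. A positive value is a larger log2 FC in males, and a negative value a larger log2 FC in females. The contrast uses 12 of the 24 libraries in the series, 3 in each of 4 groups: injured males at 1 h, uninjured males, injured females at 1 h and uninjured females. All 4 groups carried the same *tau*-KO genotype and were adult mated flies, so no fly with Tau enters the comparison. Injury was a single strike to the whole body with a high impact trauma device, in which flies in a vial are thrown against its wall. Each library was made from the RNA of 1 brain and holds reads from the 3′ ends of polyadenylated transcripts. The question is whether sexes that both lack Tau still differ in the early response of their brains.

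Tau binds microtubules and stabilises them in axons. In flies, injury to the head activates innate immune signalling through the Toll and Imd pathways, which induce antimicrobial peptides, and is followed by changes in stress response, metabolism and mitochondrial genes. Gene levels can also differ between uninjured males and females, and an interaction can arise from a change after injury in one sex, in the other or in both.

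The reads counted in genes ran from 290304 to 1880528 in males at 1 h, from 117416 to 1407485 in male controls, from 466100 to 1056271 in females at 1 h and from 454039 to 1200652 in female controls. Of these libraries 2 were shallow, male control 1 with 117416 counts and male 1 h 3 with 290304, and 1 read in male control 1 equalled 7.04 CPM, the unit of level used here, in which each library is scaled to the same effective total. Replicates were less alike in males. Pearson's r of log2 CPM between replicates, across 5241 genes, was 0.486 to 0.72 in males at 1 h and 0.536 to 0.747 in male controls, against 0.93 to 0.948 in females at 1 h and 0.801 to 0.874 in female controls. Another 3 libraries stood apart. The summed level of 19 muscle markers was 770 CPM in male 1 h 2 and 794 CPM in male control 2, against 4013 to 4950 CPM in the other 10 libraries. The sum of 17 neuron markers was also lowest in these libraries, at 2872 CPM in male 1 h 2 and 3084 CPM in male control 2, against 4448 to 6988 CPM elsewhere. In female control 2 the sum of the antenna markers was 7930 CPM, against 433 to 1328 CPM in the other 11. Its fat body marker sum was also the highest, at 23867 CPM against 2493 to 10226 CPM. Photoreceptor markers summed to 18273 CPM in male 1 h 2, against 4123 to 10138 CPM elsewhere. All 3 libraries carry replicate number 2. Where a named call was lost without these 3 libraries, this is said beside it. The pan-neuronal markers *elav*, *nSyb* and *Syt1* and the glial marker *repo* were counted in each of the 12 libraries. In whole brains, fewer cells of a type and less RNA per cell cannot be told apart.

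The labels gave few checks. *tau* itself was counted in each of the 12 libraries, at 125 to 157 CPM in males at 1 h, 88.2 to 141 CPM in male controls, 142 to 191 CPM in females at 1 h and 117 to 180 CPM in female controls, with an interaction of 0.19 ± 0.54 (log2 difference ± SE). Whether these 3′ end reads lie outside the deleted part of the gene is not given in the sources used here, so they do not check the knockout. *Yp1*, a yolk protein of the female fat body, stood at 26.7 to 1655 CPM in the 6 male libraries and at 2276 to 12979 CPM in the 6 female libraries, with no overlap between the sexes. The 12979 CPM was that of female control 2, which also had the highest fat body marker sum. *roX1*, the non-coding RNA of male dosage compensation, did not separate the sexes, at 318 to 1041 CPM in males and 547 to 1001 CPM in females, and it overlaps the gene *ec* on the other strand.

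Of 16995 genes listed, 7865 reached 5 counts in no fewer than 3 libraries and entered the test. At an unadjusted p under 0.05 and a log2 difference over 1 in size, the rule used below for a called gene, 239 genes were called (3.04% of those tested), 129 positive (1.64%) and 110 negative (1.4%). The interaction was not significant for any gene after adjustment: edgeR's quasi-likelihood test called 0 genes at a false discovery rate under 0.05, the lowest Benjamini-Hochberg adjusted p was 0.9999, and 240 genes (3.05%) had an unadjusted p under 0.05, where a uniform p would give 393.2. At that rate DESeq2 called 1 gene, *Obp19a*, the likelihood ratio test of edgeR 1, *CG14050*, and limma voom 0. The counts of *Obp19a* came almost wholly from female control 2, with 165 counts there and 0 to 3 in each of the other 11 libraries. The genes named below were therefore called at an unadjusted p only.

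**Figure D1:**
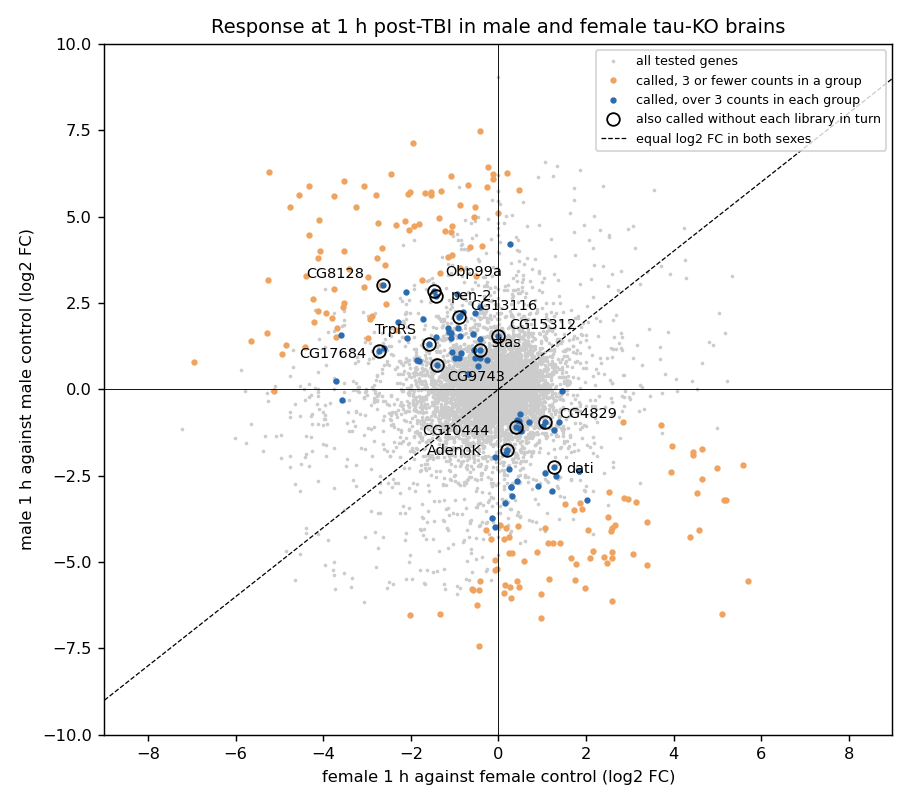
Log2 FC at 1 h post-TBI against control in males (vertical axis) and females (horizontal axis) for 7865 tested genes, with the 239 called genes in colour. Orange points are the 163 called genes with 3 or fewer counts in a group and blue points the 76 with more. Called genes lie far from the dashed line of equal log2 FC, and 218 of them have effects of opposite sign in the sexes.

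Most called genes had the larger effect in males. Taken alone, the 1 h effect was called for 365 genes in males (4.64%) and 113 in females (1.44%). The fit shares 1 estimate of the spread among groups. Its median SE from 50 to 200 CPM was thus alike, at 0.514 in males and 0.507 in females. Replicates were less alike in males, and the part of unequal spread in these numbers of calls was not tested. Of the 239 called interactions, 137 had a called effect in males and 33 in females, 5 of them in both, and 74 in neither. The log2 FC was larger in size in males for 178. Over all tested genes, its median size was 1.17 in males and 0.959 in females under 10 CPM. It was 0.523 and 0.457 from 10 to 50 CPM, 0.28 and 0.287 from 50 to 200 CPM, and 0.158 and 0.229 over 200 CPM. Libraries at 1 h did not overlap control in 303 of all tested genes in males (3.85%) and in 816 in females (10.4%). Groups of 3 libraries can separate without any true difference, and these shares carry no test. The 2 effects had opposite sign in 218, as a call on their difference favours. Across all tested genes the male and female log2 FC were almost unrelated, with Pearson's r of 0.029 and Spearman's rho of 0.067. Among the 2365 genes with a mean of at least 50 CPM, r was 0.251 and rho 0.224. These correlations run across genes, which share libraries and depth, and carry no test.

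Most calls lay in genes of few counts. Among 1361 tested genes with 3 or fewer counts summed over at least 1 of the 4 groups, 163 were called (12%), and 121 called genes had 0 counts in a whole group. Among the 6504 genes with over 3 counts in each group, 76 were called (1.17%), 45 positive and 31 negative. The median SE of the interaction was 2.27 for genes under 10 CPM, 1.23 from 10 to 50 CPM, 0.722 from 50 to 200 CPM and 0.533 over 200 CPM. Over 200 CPM, 5 of 707 genes were called. Of the 76 genes with over 3 counts in each group, 37 were called in 6 or fewer of the 12 fits that left out 1 library each. Another 13 were called in each of the 12, of which 9 were positive and 4 negative. Of these 13, 6 remained called without the 3 libraries that stand apart: *AdenoK*, *CG10444*, *Obp99a*, *CG15312*, *stas* and *CG17684*.

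**Figure D2:**
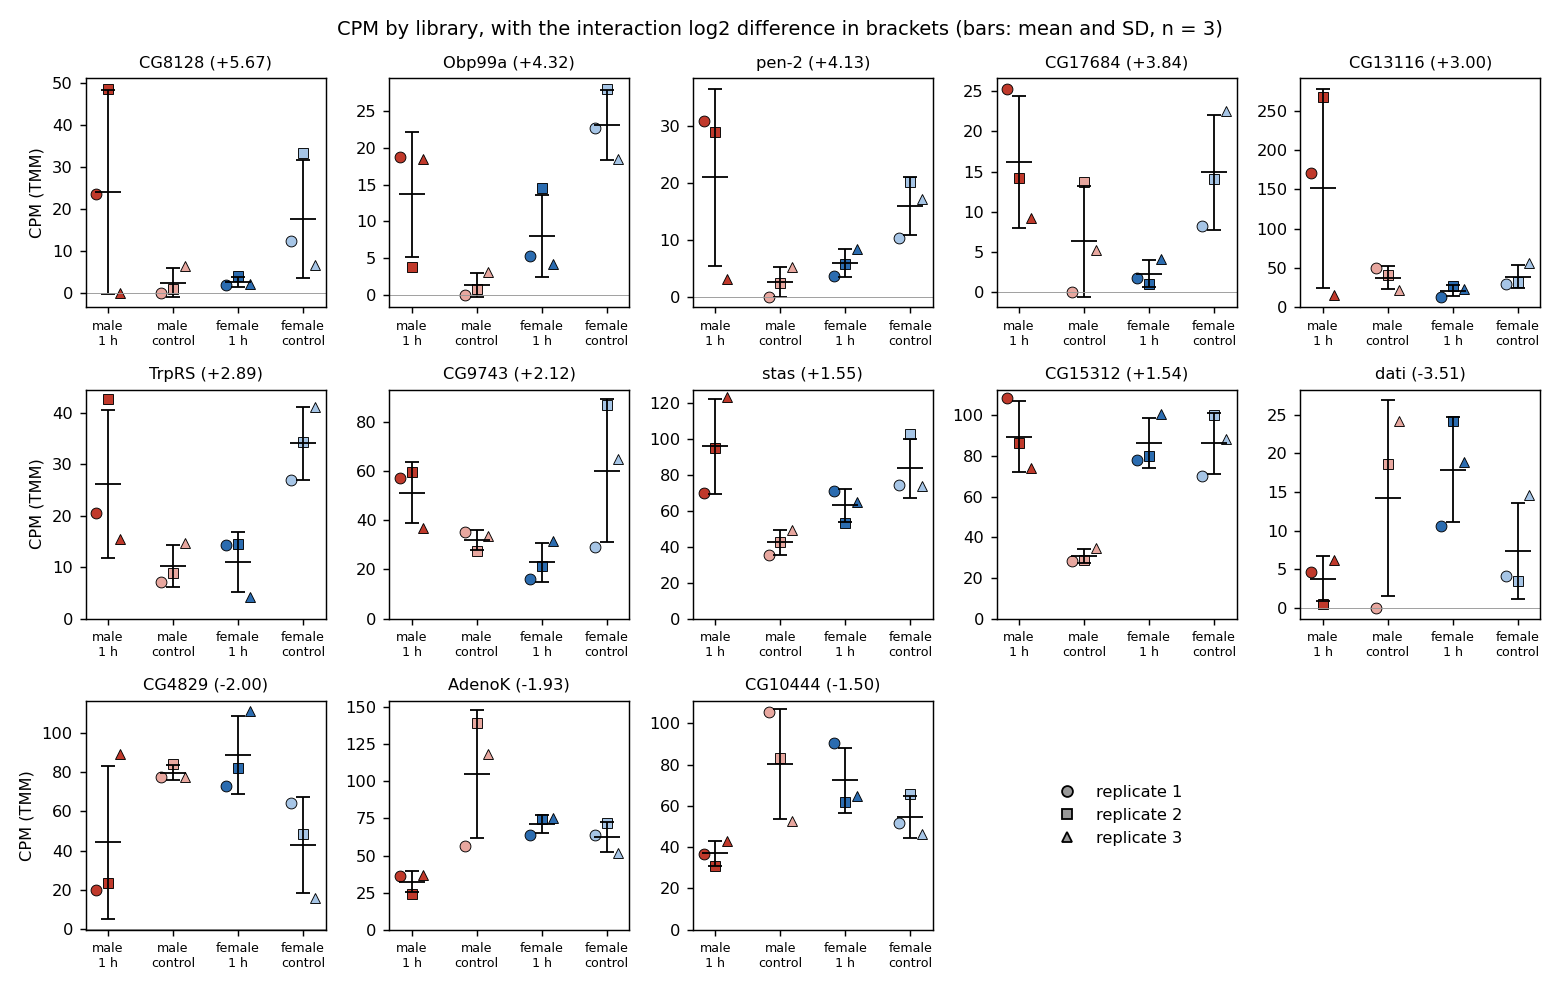
CPM in each library for the 13 genes with over 3 counts in each group that were called in each of the 12 fits without 1 library. Groups run from left to right as male 1 h, male control, female 1 h and female control, bars give the mean and SD of 3 libraries, and the interaction as a log2 difference stands in brackets. The 3 male 1 h libraries of *AdenoK* lie below the 3 male controls, and those of *CG15312* and *stas* above them.

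*AdenoK*, which encodes adenosine kinase, the enzyme that clears adenosine by phosphorylating it to AMP, had the lowest unadjusted p of the genes with over 3 counts in each group (0.0021, edgeR). Its level was 36.5, 24 and 37 CPM in males at 1 h, against 56.3, 140 and 119 CPM in male controls. In females it was 63.9, 74.5 and 75.4 CPM at 1 h, against 64.1, 71.9 and 51.6 CPM in controls. The male groups did not overlap and the female groups did. The log2 FC was −1.75 in males and 0.19 in females, and the interaction −1.93 ± 0.56. It was called under each of the 24 alternatives run, at −2.31 to −1.55. For each of the 13 genes, 12 of the alternatives are the fits by which it was chosen, so those calls were fixed in advance. Of the 14 genes of adenosine metabolism and signalling looked up, 6 were tested. *AdenoK* was the only one called (16.7%, beside 3.04% of all genes), and their median interaction was −0.34, beside 0.08 over all tested genes. *AdoR*, the adenosine receptor, had 0.82 with an SE of 1.4998.

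The other negative calls among the 13 were *CG10444*, *CG4829* and *dati*. *CG10444* stood at 36.5, 31.1 and 43.1 CPM in males at 1 h, against 106, 83.2 and 52.5 CPM in male controls. It stood at 90.5, 61.9 and 65.0 CPM in females at 1 h, against 51.7, 65.8 and 46.3 CPM in female controls. The male groups were apart and the female groups overlapped at 1 library, with an interaction of −1.5045 ± 0.59. The call was lost with limma voom (−1.18) and with no filter on low counts. *CG4829* showed the reverse separation: 72.8, 82.2 and 111 CPM in females at 1 h all lay above 64.1, 48.3 and 15.9 CPM in female controls. In males, 19.7, 23.5 and 89.4 CPM at 1 h overlapped 77.5, 84 and 77.7 CPM in controls. Its interaction was −2.002 ± 0.77, and −1.801 and no longer called without the 3 libraries that stand apart. *dati*, a zinc finger protein gene, had 5, 1 and 2 counts in males at 1 h against 0, 23 and 23 in male controls, and 6, 25 and 9 counts in females at 1 h against 2, 4 and 11 in female controls. Both pairs overlapped, the interaction was −3.51 ± 1.33, and it was −2.44 and not called without the 3 libraries. *dati* overlaps the antisense RNA *CR44027* on the other strand, and the strand setting of the counts is not given in the sources used here.

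*CG15312* was the most precise of the positive calls. It was counted at 109, 86.2 and 73.9 CPM in males at 1 h, against 28.2, 29.1 and 34.6 CPM in male controls. In females it was at 78.1, 80.3 and 101 CPM at 1 h, against 70.3, 100 and 88.6 CPM in controls. Male controls were thus the 1 group that stood below the other 3, and the log2 FC was 1.53 in males and −0.01 in females. The interaction was 1.54 ± 0.55, and ranged from 1.37 to 1.67 over 24 alternatives, of which 23 called it. The 12 fits that chose the gene are among them. The male to female ratio of its mean CPM, as a log2 value, was 0.05 at 1 h and −1.495 in controls.

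In 3 of the 13 genes the libraries at 1 h lay wholly above control in males and wholly below control in females. *stas*, which encodes a transmembrane protein whose loss disturbs motor circuits in flies, was at 70.2, 94.9 and 123 CPM in males at 1 h, against 35.2, 42.8 and 49.3 CPM in male controls. In females it was at 71.0, 53.2 and 65.0 CPM at 1 h, against 74.4, 103 and 74.1 CPM in controls. The log2 FC was 1.14 in males and −0.42 in females, with an interaction of 1.55 ± 0.56 that kept its call without the 3 libraries that stand apart (1.33) and lost it with limma voom and with no filter on low counts. *TrpRS*, the cytosolic tryptophanyl-tRNA synthetase, was at 20.6, 42.6 and 15.4 CPM in males at 1 h, against 7.04, 8.88 and 14.7 CPM in male controls. It was at 14.2, 14.5 and 4.19 CPM in females at 1 h, against 26.9, 34.2 and 41.0 CPM in female controls. The nearest male libraries, at 15.4 and 14.7 CPM, differed by less than 1 count of male 1 h 3, which had 5. Its interaction was 2.89 ± 1.00, and 2.13 and not called without the 3 libraries.

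*Obp99a*, an odorant-binding protein gene, was the third. It had 20, 7 and 6 counts in males at 1 h, against 0, 1 and 3 in male controls. It had 3, 15 and 2 counts in females at 1 h, against 11, 32 and 14 in female controls. In CPM these were 18.7, 3.82 and 18.5 against 0, 0.807 and 3.15 in males, and 5.33, 14.5 and 4.19 against 22.7, 28.1 and 18.5 in females. The groups did not overlap in either sex, although the nearest male libraries, at 3.82 and 3.15 CPM, differed by less than 1 count of male control 3. The log2 FC was 2.86 in males and −1.46 in females, and the interaction was 4.32 ± 1.42. It was called under each of the 24 alternatives, at 3.84 to 5.45, and the 12 fits that chose it are among them. Across all 7865 genes, such opposite separation was found in 6 of positive (0.0763%) and 3 of negative sign (0.0381%), of which 7 in all were called.

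Among the remaining positive calls of the 13, only *CG17684* was called without the 3 libraries that stand apart. *CG9743*, a gene of the fatty acid desaturase family, was at 57.1, 59.5 and 37 CPM in males at 1 h and 35.2, 27.4 and 33.6 CPM in male controls, and at 16, 21.3 and 31.4 CPM in females at 1 h and 28.9, 86.9 and 64.8 CPM in female controls. Its male groups were apart, and its interaction of 2.12 ± 0.71 became 1.51 and was not called without the 3 libraries. *CG13116* was at 170, 268 and 15.4 CPM in males at 1 h against 49.3, 41.2 and 21 CPM in male controls, with the shallow library male 1 h 3 below every control. Its interaction was 3.0003 ± 1.09, and 2.61 and not called without the 3 libraries. *CG17684* was at 25.3, 14.2 and 9.24 CPM against 0, 13.7 and 5.25 CPM in males and at 1.78, 0.967 and 4.19 CPM against 8.27, 14 and 22.5 CPM in females, each at 1 h against control. Its female groups were apart, and its interaction of 3.84 ± 1.46 was called under each of the 24 alternatives, including the 12 that chose it. *CG8128*, with 5.67 ± 2.10, and *pen-2*, a subunit of the γ-secretase complex, with 4.13 ± 1.67, both had 0 counts in male control 1, and neither was called without the 3 libraries, at 3.21 and 3.38. *pen-2* overlaps *sbb* on the other strand.

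The levels of the sexes were also compared within each condition. The sign of the male to female difference in mean CPM at 1 h was opposite to that in controls in each of the 13, in 70 of the 76 called genes with over 3 counts in each group, and in 2407 of the 6504 tested. Of the 76, the difference between the sexes was larger at 1 h in 46 and larger in controls in 30 (39.5%, beside 42.3% over the 6504). The opposite signs follow in part from the choice of genes by this contrast, and in *CG15312* at 1 h (log2 ratio 0.05) and *CG13116* in controls (−0.06) the sexes were nearly level. Among the 13, the larger difference lay in controls for 5, *CG15312*, *Obp99a*, *TrpRS*, *stas* and *pen-2*. *Obp99a* averaged 13.7 CPM in males and 8.01 CPM in females at 1 h, against 1.32 CPM in males and 23.1 CPM in females as controls.

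**Figure D3:**
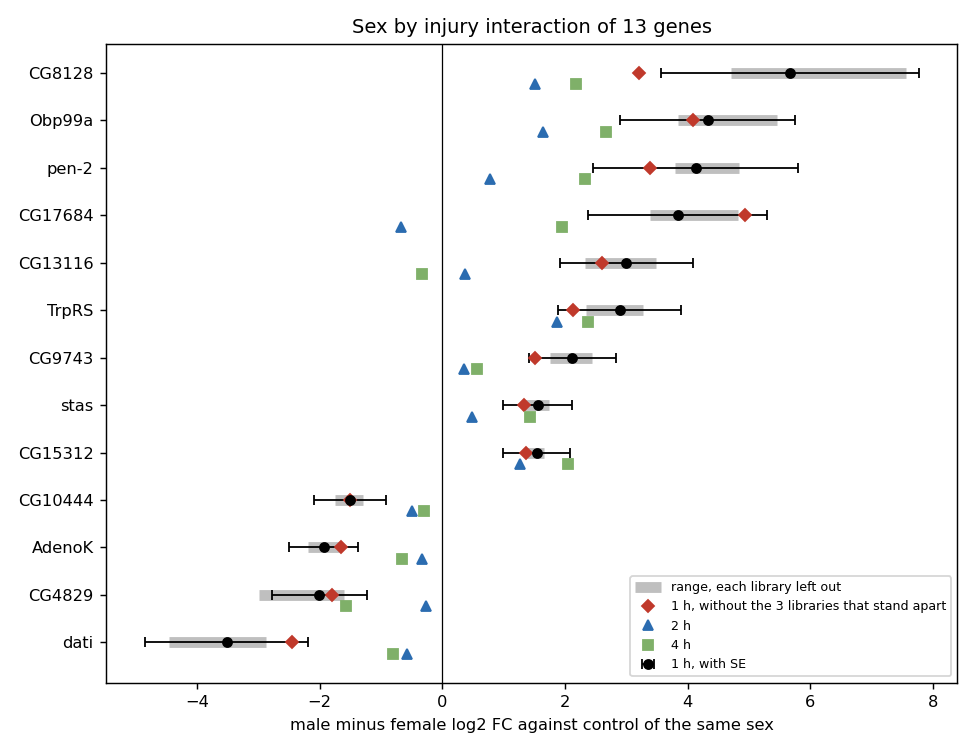
Interaction of the 13 genes as the male minus female log2 FC. Black points and bars give the value at 1 h with its SE, grey bars the range when each of the 12 libraries is left out in turn, red diamonds the value without the 3 libraries that stand apart, and blue triangles and green squares the interactions at 2 h and 4 h. The genes were chosen by the fits that the grey bars span. All but *CG17684* (−0.67 at 2 h) and *CG13116* (−0.33 at 4 h) keep the sign of 1 h at both later times, which share its controls.

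The same contrast at 2 h and 4 h shares the male and female controls with that at 1 h, so the 3 values are given side by side only. At 1, 2 and 4 h the interaction was 1.54, 1.27 and 2.05 for *CG15312*, 2.89, 1.87 and 2.38 for *TrpRS*, and 4.32, 1.65 and 2.67 for *Obp99a*. For *stas* it was 1.55, 0.49 and 1.43. For *AdenoK* it was −1.93, −0.33 and −0.66, and for *CG13116* 3.0003, 0.37 and −0.33, nearer to 0 at the later times than at 1 h.

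Genes with too few counts for a measured fold change made up most of the list, and their counts describe them better. *Cyp6v1*, a cytochrome P450 gene, had the lowest unadjusted p of all (0.00064, edgeR). It had 15, 2 and 3 counts in males at 1 h and 0 in each male control, which makes it at least 4.82-fold higher in males at 1 h, taking 3 counts over the group as the floor. In females it had 2, 9 and 1 counts at 1 h and 2, 16 and 23 in controls, with overlap. It was called under each of the 24 alternatives. Values written as at least a fold pool the counts of a group and leave out the spread between its brains. *CG9125* had 9, 48 and 0 counts in males at 1 h and 0 in each male control (at least 13.7-fold higher), and 0 in each female at 1 h against 0, 10 and 6 in female controls (at least 4.65-fold lower). *CG14050* was its mirror image, with 0 counts in each male at 1 h against 0, 34 and 11 in male controls (at least 20.7-fold lower) and 2, 6 and 3 in females at 1 h against 0 in each female control (at least 4.21-fold higher). *CR43700*, a non-coding RNA gene, followed the same course, with 0 against 0, 16 and 6 counts in males and 5, 11 and 2 against 0 counts in females, at 1 h against control. *lsn*, a subunit of the ESCRT-II complex of endosomal sorting, had 0 counts in each male at 1 h against 0, 72 and 16 in male controls (at least 40.5-fold lower), and 0, 8 and 3 in females at 1 h against 1, 16 and 2 in female controls. In each of *CG14050*, *CR43700* and *lsn*, the most counts of the male controls came from male control 2 and the 0 from male control 1, in which a gene of 7.04 CPM gives 1 read. *CG9125* and *CG14050* had too few counts to be tested without the 3 libraries that stand apart. *Cyp6v1*, *CG9125* and *lsn* each overlap a gene on the other strand.

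The cytochrome P450 genes, which oxidise hormones, fatty acids and toxins, had the most calls of the pathway lists. Of 83 genes, 50 were tested and 4 called, 2 positive and 2 negative (8.0%, beside 3.04% of all genes), and their median interaction was 0.02. Among the calls, *Cyp6v1*, *Cyp6a8* and *Cyp4g1* had 3 or fewer counts in a group, a class in which 12% of all tested genes were called. *Cyp6a8* had 1, 1 and 1 counts in males at 1 h against 2, 22 and 22 in male controls, and 7, 10 and 8 in females at 1 h against 3, 7 and 19 in female controls. In CPM the male groups, 0.936, 0.546 and 3.08 at 1 h and 14.1, 17.8 and 23.1 as controls, did not overlap, and the call held under each of the 24 alternatives at −4.95 to −3.18. *Cyp4g1*, the oenocyte enzyme that makes cuticular hydrocarbons, had 63, 5 and 1 counts in males at 1 h against 0 in each male control (at least 16.6-fold higher), and 0, 0 and 2 in females at 1 h against 1, 0 and 10 in female controls. Without male 1 h 1, or without female control 3, it was not called. *Cyp6g2* rested on male control 2 (256 CPM), and its interaction of −3.91 ± 1.52 became −1.45 and was not called without the 3 libraries.

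Of 24 tested antimicrobial peptide genes, effectors of innate immunity, none was called (beside 3.04% of all genes), and their median log2 FC was 0.35 in males and 0.37 in females, with a median interaction of 0.05. Without the 3 libraries that stand apart the median was −0.46, beside −0.02 over all genes, and 1 of 23, *DptB*, was called, in the negative direction. *Drs*, the antifungal peptide induced by Toll, stood at 741, 238 and 320 CPM in males at 1 h, against 275, 593 and 607 CPM in male controls, and at 423, 549 and 423 CPM in females at 1 h, against 384, 304 and 391 CPM in female controls. Its interaction was −0.56 ± 0.68, with an approximate 95% interval of −1.89 to 0.76. *AttC*, an antibacterial peptide of Imd, varied more within groups than between them, at 156, 273 and 3.08 CPM in males at 1 h against 14.1, 2.42 and 236 CPM in male controls. It was at 35.5, 24.2 and 14.7 CPM in females at 1 h against 37.2, 14.9 and 2.65 CPM in female controls. Its interaction was 0.23 ± 1.64, and 4.33 and called without male control 3. *CecA1*, a cecropin, had the same male pattern, with 14, 136 and 3.08 CPM at 1 h against 0, 1.61 and 142 CPM in controls. Its interaction was −0.54 ± 1.73, and 4.56 and called without male control 3. Without male control 2 and male 1 h 2 *CecA1* was called in the other direction, at −3.63. *DptB*, a diptericin, had −2.50 ± 2.62, and 112 CPM in male control 3 against 0 in both other male controls. It was called at −5.90 without the 3 libraries that stand apart and at −6.66 without the 2 male ones, and was 5.54 and not called without male control 3.

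Among 34 tested components of Toll and Imd, 3 were called (8.82%, beside 3.04% of all genes), and the median interaction was 0.11. *Fadd* and *Dredd*, 2 of the 3, had 0 counts in a group. Of all tested genes with 3 or fewer counts in a group, 12% were called. *Fadd*, the adaptor of the Imd complex, had 2, 10 and 3 counts in males at 1 h and 0 in each male control (at least 3.62-fold higher), and 9, 7 and 1 against 5, 15 and 1 counts in females at 1 h and control. *Dredd*, the caspase that *Fadd* recruits, went the other way, with 0 counts in each male at 1 h against 0, 1 and 9 in male controls, and 2, 3 and 3 in females at 1 h against 2, 3 and 0 in female controls. *Uev1A*, a ubiquitin-conjugating enzyme variant of Imd signalling, differed through females, at 131, 160 and 218 CPM at 1 h against 103, 38.6 and 45.0 CPM in controls, with an interaction of −1.51 ± 0.72. None of the 3 was called without the 3 libraries that stand apart. *pll*, the kinase of the Toll pathway, was not called, with 0 counts in each male at 1 h and 0, 0 and 6 in male controls. In the JAK-STAT list, *et*, an antagonist of the pathway, was the 1 call among 11 tested genes (9.09%, beside 3.04% of all genes). It had 6, 51 and 0 counts in males at 1 h against 0 in each male control, and so lay in the same class of few counts (12% called). It was called in 4 of the 12 fits without 1 library and had too few counts to be tested without the 3 libraries.

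Mitochondrial lists held 2 calls. Among 69 tested genes of the respiratory chain and ATP synthase, the interaction was positive for 49 and negative for 20. Over all 7865 tested genes it was positive for 4218 and negative for 3644. The median of the 69 was 0.16, and none was called (beside 3.04% of all genes). The 70 mitochondrial ribosomal protein genes had a median of 0.22, which was −0.01 without the 3 libraries, and 2 calls (2.86%, beside 3.04%), both positive. Of these, *mRpL20* stood at 117, 169 and 40.1 CPM in males at 1 h, against 28.2, 42.8 and 73.5 CPM in male controls, and at 39.1, 61.9 and 39.8 CPM in females at 1 h, against 49.6, 52.6 and 106 CPM in female controls. The male groups overlapped, and the interaction of 1.69 ± 0.67 was 1.24 and not called without the 3 libraries. *mRpL48*, the other call, had 33, 13 and 0 counts in males at 1 h against 0, 1 and 0 in male controls. The summed level of the mitochondrial ribosomal list was lowest in the shallow libraries, at 1910 CPM in male 1 h 3 and 1479 CPM in male control 1, against 2023 to 3715 CPM in the other 10, and the part of depth in these values was not tested. *Surf1*, an assembly factor of cytochrome oxidase, had 0 counts in each male at 1 h and in male controls 1 and 2, with 10.5 CPM in male control 3 alone. Its effect in males was called (unadjusted p 0.0217, edgeR) and its fitted interaction, −4.13 ± 2.23, was not. The interaction became 0.62 without male control 3, and was called by edgeR's likelihood ratio test and without male control 2 (−4.75). *yip2*, of fatty acid oxidation, had 0.99 ± 1.34, *vimar* and *Miro*, which act in mitochondrial dynamics, 1.30 ± 2.07 and −1.14 ± 1.24, and *aralar1*, a mitochondrial carrier, 0.91 ± 1.24. None of the 14 genes that the study discusses by name in its immune and mitochondrial results was called for the interaction with all libraries by the quasi-likelihood test, and the 95% intervals of all 14 include 0. Of the 14, *Surf1*, *DptB*, *CecA1* and *AttC* were called under the alternatives given with them. The intervals are wide, so equal responses in the sexes are not shown.

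Genes of neurogenesis and axon guidance had 21 positive and 37 negative interactions among 58 tested, beside 4218 and 3644 over all 7865 genes. Their median was −0.18, and −0.03 without the 3 libraries. Of the 58, 3 were called (5.17%, beside 3.04% of all genes). Among them *beat-Ia* and *PlexB* had 0 counts in a group, and 12% of all tested genes with 3 or fewer counts in a group were called. *beat-Ia*, an immunoglobulin-domain protein that steers motor axons, had 8, 9 and 0 counts in males at 1 h against 0 in each male control (at least 4.10-fold higher), and 0, 2 and 2 in females at 1 h against 2, 16 and 7 in female controls. The call was lost without the 3 libraries that stand apart, without the 2 male ones, without male control 2 alone, with DESeq2 and with limma voom. *PlexB*, a semaphorin receptor, had 0 counts in each male at 1 h and 0, 0 and 11 in male controls, with 7, 2 and 3 in females at 1 h and 1, 0 and 2 in female controls. Its call was lost without male control 3, the only male control with counts, and without male 1 h 2. It held without the 3 libraries that stand apart (−6.85). *fz2*, a Wnt receptor, had −1.22 ± 0.56, was called in 3 of the 12 fits without 1 library, and was −0.63 and not called without the 3 libraries. Of 36 synaptic vesicle and active zone genes 2 were called (5.56%, beside 3.04%), *Syt4*, a synaptotagmin, at 1.795 ± 0.82, and *Cadps*, which acts in dense-core vesicle release, at −1.31 ± 0.60, each in 6 of the 12. Without the 3 libraries *Syt4* was 0.32 and not called, and *Cadps* was −1.73 and called. *Cadps* stood at 22.5, 37.6 and 33.9 CPM in males at 1 h, against 42.2, 56.5 and 72.4 CPM in male controls, with no overlap, and at 55.0, 59.9 and 71.2 CPM against 49.6, 55.3 and 34.4 CPM in females at 1 h and control, with overlap.

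**Figure D4:**
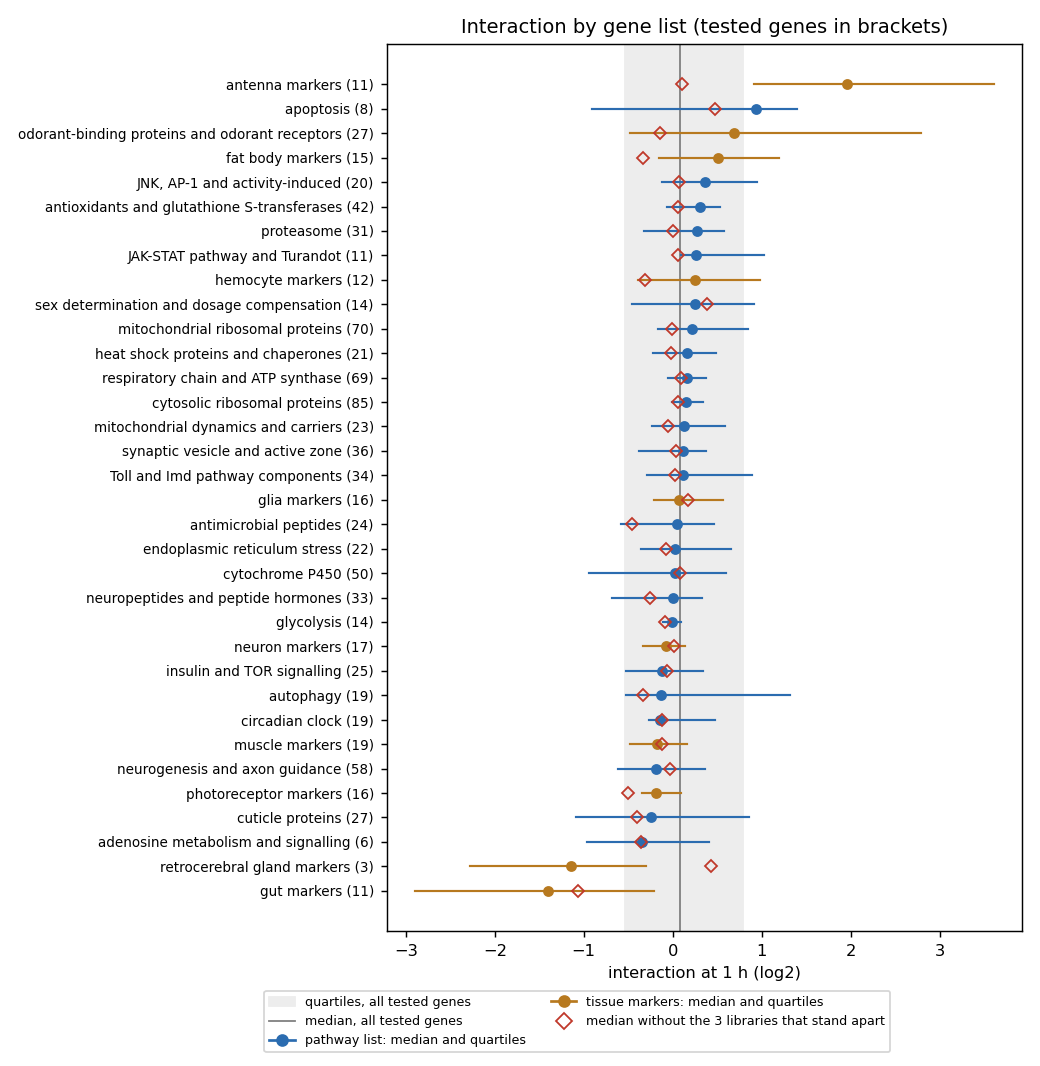
Median (points) and quartiles (bars) of the interaction at 1 h in 34 gene lists, with the number of tested genes in brackets. The grey band spans the quartiles of all tested genes (−0.54 to 0.79) around their median of 0.08, and open diamonds give each median without the 3 libraries that stand apart. The antenna and retrocerebral gland medians lie outside the band with all libraries and inside it without the 3, while the gut median stays below it.

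Of 24 pathway lists, 23 had a median within the quartiles of all tested genes, and 15 had no called gene. Apoptosis, with a median of 0.93 over 8 tested genes and none called, was the exception, at 0.48 without the 3 libraries. Cytosolic ribosomal proteins had 63 positive and 22 negative interactions among 85, with a median of 0.15. Over all 7865 tested genes, 4218 were positive and 3644 negative. The summed level of this list was lowest in the shallow libraries, at 138110 CPM in male control 1 and 163150 CPM in male 1 h 3. It was 165540 to 211190 CPM in the others, and the part of depth in these values was not tested. Heat shock proteins and chaperones had a median of 0.16 over 21 tested genes, the proteasome of 0.27 over 31 and glycolysis of −0.01 over 14, each with none called. The lists were described by these counts and medians, and no test was made on them.

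Lists that mark other tissues carried the 3 medians farthest from 0. Those of the antenna and the retrocerebral gland moved inside the quartiles of all tested genes without the 3 libraries that stand apart, and that of the gut did not. Of 11 tested antenna markers 3 were called (27.3%, beside 3.04% of all genes), with a median of 1.96, and 0.11 with none called without the 3 libraries that stand apart. *antdh*, the antennal dehydrogenase, was at 19.7, 15.3 and 12.3 CPM in males at 1 h, against 0, 6.46 and 6.30 CPM in male controls, and at 7.10, 1.93 and 2.10 CPM in females at 1 h, against 12.4, 104 and 18.5 CPM in female controls. The groups did not overlap in either sex, and its interaction of 5.17 ± 1.70 was 3.85 and not called without the 3 libraries. *Obp28a* reached 691 CPM in female control 2, against 7.04 to 87.8 CPM in the other 11 libraries, and its interaction of 3.94 ± 1.37 was 0.86 without the 3. *Orco*, the odorant co-receptor, was at 71.1 CPM in female control 2 and at 0 to 7.27 CPM elsewhere. *Obp99a* itself was at 28.1 CPM in female control 2 and at 22.7 and 18.5 CPM in both other female controls, and its interaction without the 3 libraries was 4.09. Whether antennal tissue had a part in these values was not tested.

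*Akh*, the adipokinetic hormone of the corpora cardiaca, a gland next to the brain, was at 200, 4.91 and 462 CPM in males at 1 h, against 753, 4382 and 449 CPM in male controls. In females it was at 641, 459 and 524 CPM at 1 h, against 688, 148 and 467 CPM in controls. The interaction was −3.42 ± 1.40 with all libraries, and −0.79 and not called without the 3 that stand apart. *CG14075* took the same shape, with 2217 CPM in male control 2 and an interaction of −3.57 ± 1.11 that became −0.45. *CG42656* was the reverse case, with 1787 CPM in male 1 h 2 against 29.1 to 54.5 CPM in the other 11 libraries, and its interaction of 3.95 ± 1.38 became −0.11. Gut markers had 1 positive and 10 negative interactions among 11, beside 4218 and 3644 over all 7865 genes. The median of the gut markers was −1.40, and −1.06 without the 3 libraries. Their summed level was 872, 197 and 1146 CPM in males at 1 h, against 1105, 70.2 and 1540 CPM in male controls, and 1172, 1131 and 1247 CPM in females at 1 h, against 1135, 530 and 1287 CPM in female controls. *Amy-d* was the 1 call among them (9.09%, beside 3.04% of all genes), with 0 CPM in each male at 1 h against 7.04, 0 and 13.6 CPM in male controls. It thus had 3 or fewer counts in a group, the class in which 12% of all tested genes were called. Its near-identical copy *Amy-p* had an interaction of 0.00. Reads that mapped to several places were not counted in genes, and the part of this in either value was not tested. The part of gut tissue in the gene values was not tested.

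**Figure D5:**
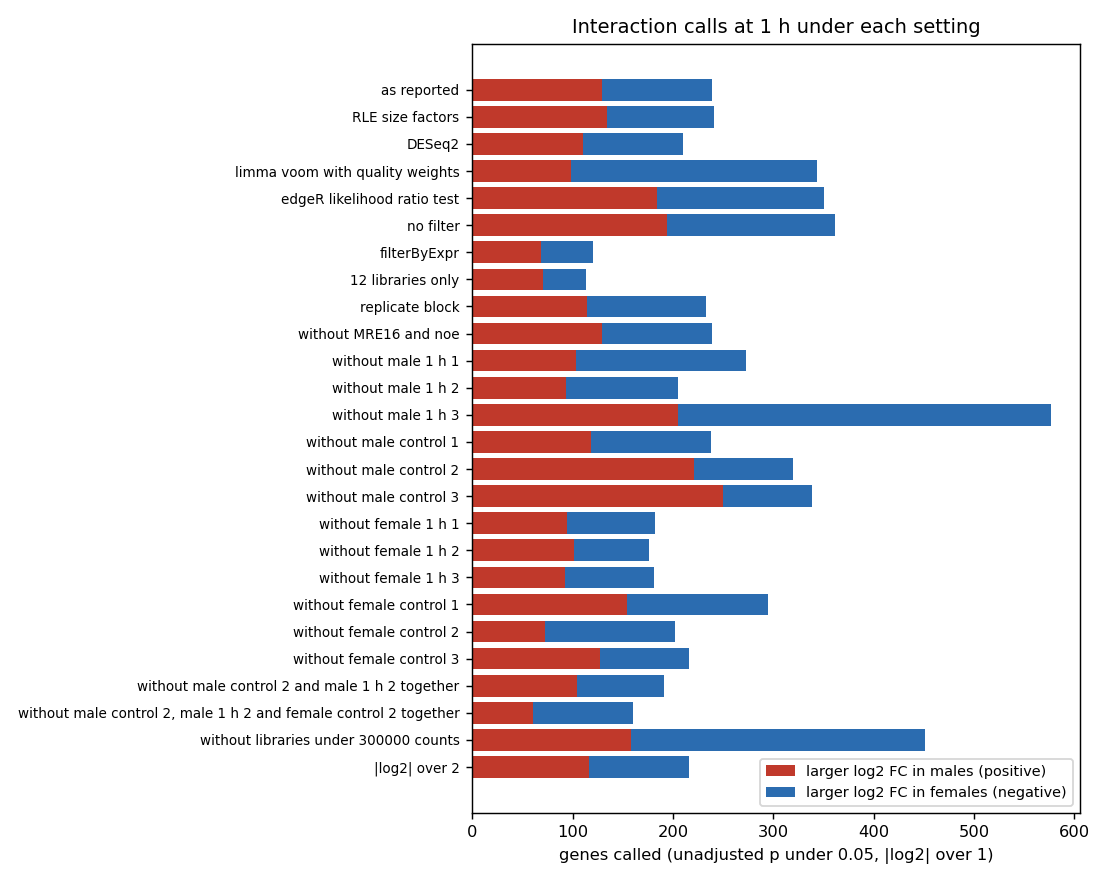
Number of genes called for the interaction at 1 h under each way of processing, split into positive (red) and negative (blue). The count was 239 as reported, with 129 positive, and it was highest without male 1 h 3, at 577 with 205 positive.

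The number of calls depended on single male libraries. Leaving out the shallow library male 1 h 3 gave 577 calls, of which 35.5% were positive, while leaving out male control 3 gave 339, of which 250 were positive. Without the 3 libraries that stand apart, 160 of 7357 genes were called (2.17%), 61 positive and 99 negative, in place of 129 and 110. Limma voom with quality weights, which gives deviating libraries less weight, called 98 positive and 246 negative genes, a positive share of 28.5% beside 54.0%, with the median of all genes at −0.14 beside 0.08. Positive calls were thus the larger share as reported and without male control 3, and the smaller share without male 1 h 3, without the 3 libraries and with limma voom.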

How the data were processed

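RNA from single *tau*-KO brains was sequenced from the 3′ end. The deposited values are raw counts of reads per gene. To make them, the authors demultiplexed the run (CASAVA 1.8.2), mapped reads to dm3 (STAR 2.4) and tallied them with HTSeq, with no normalization (versions from the submitters' processing notes). Annotation version and strand setting are not given in the sources used here. Tables of the authors' own comparisons (fold changes, average levels, likelihood ratios, p-values and FDR from edgeR 3.22.3) were not used. Reads without a gene did not enter library sizes: 12.2 to 32.2% in each library mapped to several places, 6.06 to 8.71% were ambiguous and 1.74 to 7.19% lay in no gene.

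Groups came from sample titles. The 3 libraries of a group are described as biological replicates, each from a single brain; whether flies shared a vial or a day is not given in the sources used here. The interaction was a contrast in 1 edgeR 4.0.16 fit of all 24 libraries in 8 groups (R 4.3.3, limma 3.58.1, DESeq2 1.42.0), scaled by TMM and tested with the robust quasi-likelihood F-test, which shares 1 estimate of the spread among groups (common dispersion 0.4172). Genes with at least 5 counts in 3 or more libraries were kept. The SE is the log2 difference divided by the root of F. A gene was called at an unadjusted p under 0.05 and a log2 difference over 1 in size, the rule of the study's legends; its methods state a false discovery rate under 0.05, given beside it. Adjusted p-values are Benjamini-Hochberg values over all tested genes. Fold changes written as at least a value, against groups of 0 counts, use a floor of 3 counts over the group. They pool the counts of a group and leave out the spread between brains, so they do not bound the difference between groups. Fitted log2 values of genes with 0 counts in a group depend on how the fit treats 0 and are no bounds. CPM values use TMM-scaled library sizes.

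The contrast, the gene lists and the libraries said to stand apart were chosen with earlier results of these data known. Genes were named by lowest p in each direction (12 with over 3 counts in each group, 4 with fewer), by calls in all 12 fits without 1 library, by opposite separation in the sexes, as up to 4 called genes per list, by adjusted p in any tool, and as label checks (*tau*, *roX1*, *Yp1*); the text gives a selection. The 14 genes discussed by the study, list members given as examples and marker genes were added after values were seen. Alternatives were RLE factors, DESeq2, limma voom, the likelihood ratio test, no filter, filterByExpr, the 12 libraries alone, a replicate block, removal of the abundant RNAs *MRE16* and *noe*, a threshold of 2, and omission of libraries singly or together. A later genome build served only for gene names and overlaps. Figures were drawn with matplotlib 3.10.9.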

Additional observations from a re-analysis of the deposited data

Results flagged for a closer look

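In 7 called genes, the 3 libraries at 1 h lay wholly on one side of control in males and wholly on the other side in females, and the interaction term tested the difference. Of these, 5 lay above control in males: *antdh* (5.171), *Obp99a* (4.323), *TrpRS* (2.894), *CG9915* (2.728) and *stas* (1.552), each as the male minus female log2 FC. Levels of *antdh*, *Obp99a*, *TrpRS* and *stas* stand in the report. *CG9915* was at 21.5, 27.8 and 9.24 CPM in males at 1 h, against 0, 7.27 and 8.40 CPM in male controls, and at 8.88, 6.77 and 8.38 CPM in females at 1 h, against 12.4, 29.0 and 9.26 CPM in female controls. The 2 nearest libraries differed by less than 1 count in each sex at these depths, and it was called in 5 of the 12 fits without 1 library.

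The other 2 lay below control in males. *CG34357* (−7.284) had 0 counts in each male at 1 h against 3, 2 and 3 in male controls, which makes it at least 3.69-fold lower (the fitted value is no bound), and 3, 11 and 2 counts in females at 1 h against 1, 4 and 0 in female controls. *CG14247* (−5.36) had 2, 0 and 0 counts in males at 1 h against 1, 19 and 4 in male controls, and 3, 2 and 1 in females at 1 h against 0, 2 and 0 in female controls. In females the libraries of both genes were apart in CPM, by 4.19 against 3.51 CPM for *CG34357* and 1.93 against 1.75 CPM for *CG14247* at the nearest, and not in counts. *CG14247* was called in 5 of the 12 fits without 1 library, and *CG34357* in each of the 12. No group had more than 3 libraries, so no result was flagged by the distance of a single library from its group. The 3 libraries that stand apart are described in the report by their marker sums. Opposite separation of this kind, called or not, was found in 0.0763% of the 7865 tested genes with males above control and in 0.0381% with males below. The call of *CG14247* and that of *CG9915* were lost without the 3 libraries that stand apart, at −6.16 and 1.82.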

How the results depend on the processing

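The count of called genes, 239 as reported, was 362 with no filter on low counts, 120 with filterByExpr, 113 in a fit of the 12 libraries alone and 451 without the libraries under 300000 counts. It ranged from 176 to 577 when each library was left out in turn, the most without male 1 h 3, and was 320 without male control 2 and 339 without male control 3. The share of positive calls, 54% as reported, was 28.5% with limma voom, 35% without the libraries under 300000 counts, 38.1% without the 3 libraries that stand apart, 37.7% without male 1 h 1, 35.5% without male 1 h 3, 36.1% without female control 2, 69.1% without male control 2 and 73.7% without male control 3. At a false discovery rate under 0.05 the count, 0 as reported, was 1 with DESeq2, 1 with edgeR's likelihood ratio test, 5 with no filter, 1 without the libraries under 300000 counts, and 0 to 1 with each library left out. The 5 genes with no filter were *Akh*, *CG14075*, *CG42656*, *Obp19d* and *Obp28a*. RLE factors (241), DESeq2 (210), limma voom (344), the likelihood ratio test (351), removal of *MRE16* and *noe* (239), a threshold of 2 (216) and omission of the 3 libraries that stand apart (160) stayed within 1.5 times. The cause of these shifts was not tested. The number of genes tested was 11364 with no filter, 6244 with filterByExpr and 7133 in the fit of the 12 libraries alone, beside 7865 as reported. The median interaction of all tested genes, 0.08 as reported, was 0.19 without male control 3, −0.02 without female control 2 and −0.14 with limma voom.

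The replicate block changed the count to 233, of which 114 were positive and 119 negative, beside 129 and 110. Same-numbered libraries of different groups deviated together in 11 of 18 pairs (correlation over 0.1 across 5241 genes, range −0.294 to 0.577). Differently numbered libraries held both the highest correlation, 0.673 for male 1 h 3 and male control 1, and the lowest, −0.596 for male 1 h 3 and male control 2. The numbers were not taken to pair the brains, since that would need each pair over 0.1 and the labels name no shared litter or day. All 6 pairs of number 2, which the 3 libraries that stand apart carry, had 0.25 to 0.577, and the 3 pairs of male and female controls 0.124 to 0.543. Of 1610 recomputed values of single genes, 1380 kept their direction and their side of the threshold, 179 lost the call, 7 gained it and 44 changed sign.

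The sign changed for *CG42656* without 2 (−0.2139) and without 3 of the libraries that stand apart (−0.1099), and for *Obp19a* with limma voom (−0.994). *Yp1* became −0.2859 with limma voom, −0.2285 without the 3 libraries and −0.01848 without the shallow ones, and *roX1* 0.006226 with limma voom and 0.233 without the 3. *AttC* became −0.655 with limma voom, −0.4954 with the replicate block, −1.235 without the 2 libraries and −1.105 without the 3. *yip2* became −0.2951, −0.1018 and −1.022 with limma voom, without the 2 and without the 3. *mRpL55* became −1.17 with limma voom, −0.1864 with the replicate block and −1.924 without the 3.

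With each library left out in turn, the interaction ranged from −0.06894 to 4.507 for *CG42656*, −0.9007 to 1.552 for *Yp1*, −0.4945 to 0.193 for *roX1*, −6.02 to 5.544 for *DptB*, −2.998 to 4.56 for *CecA1*, −1.13 to 3.391 for *CecA2*, −0.1508 to 3.189 for *CecB*, −0.7011 to 4.327 for *AttC*, −4.751 to 0.6165 for *Surf1*, −0.5764 to 1.521 for *yip2*, −0.0654 to 1.952 for *aralar1*, −1.984 to 2.323 for *mRpL55* and −0.8173 to 2.947 for *mRpL43*. The upper ends for *DptB*, *CecA1*, *CecA2*, *CecB*, *AttC* and *Surf1* are without male control 3. With 3 brains per group, 2 shallow male libraries and a median SE of 0.533 even over 200 CPM, modest differences between the sexes were not detectable.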

Other observations

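Further genes called at an unadjusted p (edgeR) had these values. *Mal-A6*, a maltase gene, had 5, 0 and 1 counts in males at 1 h against 5, 0 and 35 in male controls, and 10, 17 and 8 in females at 1 h against 3, 7 and 0 in female controls. Its female groups did not overlap, with an interaction of −5.21 ± 1.95, and the call was lost without male control 3. *GCC88*, a golgin of the trans-Golgi network, had 1, 8 and 0 counts in males at 1 h against 0, 40 and 15 in male controls, and 4, 13 and 7 in females at 1 h against 2, 7 and 3 in female controls. The call at −4.15 ± 1.63 was lost without male control 2, and *GCC88* overlaps *CG17726* on the other strand. *kek5*, a cell-surface protein with leucine-rich repeats, was at 22.5, 15.3 and 43.1 CPM in males at 1 h, against 120, 28.3 and 45.1 CPM in male controls, and at 56.8, 59.9 and 54.5 CPM in females at 1 h, against 51.7, 31.6 and 37 CPM in female controls. Its female groups did not overlap, its male groups did, and the interaction was −1.73 ± 0.72. The call was lost without male 1 h 2, male control 1 (−1.03) or female control 2, with no filter and in the fit of the 12 libraries. *CG12541* was at 16.9, 31.6 and 64.7 CPM in males at 1 h, against 84.5, 54.9 and 72.4 CPM in male controls, and at 83.4, 104 and 85.9 CPM in females at 1 h, against 59.9, 45.6 and 64.8 CPM in female controls. Its female groups did not overlap, and the interaction of −1.63 ± 0.67 was called without the 3 libraries that stand apart (−1.60) but not without male 1 h 1 or female control 2.

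Among genes with 0 counts in a whole group, *rux*, an inhibitor of cyclin A, had 5, 33 and 0 counts in males at 1 h against 0 in each male control (at least 9.16-fold higher), and 1, 5 and 1 in females at 1 h against 2, 24 and 1 in female controls. The call was lost without the 3 libraries. *CG10038* had 3, 0 and 0 counts in males at 1 h against 0, 5 and 9 in male controls, and 4, 3 and 6 in females at 1 h against 0 in each female control (at least 4.97-fold higher), and was called under each of the 23 alternatives in which it was tested. *GstD2*, a glutathione S-transferase, was at 78 CPM in male 1 h 2 and 4.04 to 25.4 CPM in the other 11 libraries, and its interaction of 2.74 ± 1.24 became 0.05 without the 3 libraries, with the call lost.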
